A study of Homo sapiens with 18 samples.

Results

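CXCL8 and 9 related chemokines and cytokines, 10 genes of the 58302 in the deposited table, were followed through Dicer1 knockdown in thyroid cancer cells. The 10 genes were taken by symbol: CXCL8, CXCL1, CXCL2, CXCL3, CXCL5, IL6, IL1A, IL1B, CCL2 and LIF. They were chosen because CXCL8 was already known to fall after Dicer1 siRNA in these same libraries, so the siDicer values of all 10 genes are given as a description, with no p-value. Their calls in that comparison are counted only beside the share of all genes called, and support nothing. TPC1 is a line from a human papillary thyroid carcinoma that carries a RET fusion, and its Dicer1 genotype here was wild type. D11 is a single Dicer1 (+/-) clone made from TPC1 with CRISPR-Cas9, so what is particular to that clone cannot be told apart from the loss of one Dicer1 allele. Both lines were left without transfection (NT), given a negative control siRNA (NC) or given an siRNA directed at Dicer1 (siDicer). The siRNA was used at 5 nM and RNA was taken on day 4. Each of the 6 groups had 3 libraries of poly-A selected RNA, 18 in total. As in the text of the study's results, control means the 6 NT and NC samples of the same line. The study reported finding no differences between NT and NC, and one of its figure captions names NC as the control. NC and NT are compared below. The labels do not say whether replicates were separate cultures, so the p-values measure only the spread between these libraries.

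Values are normalised read counts, which are reads scaled to a library of 20 M (mega) reads. The depth was 11.3 to 23.2 M reads per library, and a count of 3 reads, taken as the floor, was worth 2.58 to 5.32 on this scale. DICER1, which overlaps the antisense gene DICER1-AS1, was at 246 to 451 in the 6 siDicer libraries and at 655 to 2492 in the other 12. On average it stood at 15.9% of control in TPC1 and at 28.8% in D11. By replicate the siDicer values were 255, 395 and 246 in TPC1 and 297, 451 and 277 in D11, so replicate 2 was highest in both lines. Whether this bears on other genes in those libraries was not tested. Among thyroid markers, PAX8 was at 7361 to 14886, TG at 32 to 124 and FOXE1 at 61 to 214. TSHR and SLC5A5 did not exceed 2, and NKX2-1 was at 0 in all 18 libraries. The keratins KRT8 and KRT18 were at 2908 or more in each library, while KRT19 and EPCAM did not exceed 8. Of 8 leukocyte markers, PTPRC, LYZ, CD3E and MS4A1 did not exceed 4 and ITGAM did not exceed 13. CD14 was at 2 to 24, CSF1R at 2 to 21 and CD68 at 763 to 1960. The 3 endothelial markers did not exceed 12.

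CXCL8, also called interleukin 8, and the related CXCL1, CXCL2, CXCL3 and CXCL5 are secreted CXC chemokines that attract neutrophils through the receptors CXCR1 and CXCR2. IL6 and LIF are cytokines that signal through the shared receptor gp130 (IL6ST) to STAT3, IL1A and IL1B are the ligands of the interleukin 1 receptor, and CCL2 attracts monocytes. Their genes are classical targets of NF-kB and AP-1, their messenger RNAs are short-lived, and oncogenic RET is known to induce several of them in thyroid cells. Dicer1 is the enzyme that cuts precursor hairpins into mature microRNAs.

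The 5 CXC genes lie in one cluster on chromosome 4 (GRCh38, GENCODE release 44). CXCL8 spans chr4:73740519-73743716 and CXCL1 spans chr4:73869393-73871308, both on the plus strand. CXCL5 (chr4:73995642-73998677), CXCL3 (chr4:74036589-74038807) and CXCL2 (chr4:74097040-74099196) are on the minus strand. IL1A and IL1B are neighbours on chromosome 2. CCL2 is on chromosome 17. IL6 on chromosome 7 overlaps STEAP1B and the antisense gene IL6-AS1, and LIF on chromosome 22 overlaps the antisense genes LIF-AS1 and LIF-AS2. The library kit keeps the strand of the RNA, but whether counting used it is not given in the sources used here. Without it, overlap with such partners could raise or lower the values of IL6 and LIF. Of all 50-base words in the transcripts of CXCL2, 13.4% also occur in another of the 5 CXC genes. The share was 4.57% for CXCL1, 6.01% for CXCL3 and 0% for CXCL8 and CXCL5. A small part of CXCL1, CXCL2 and CXCL3 thus could not be told apart by a single read of 50 bases. The study used paired-end reads, for which the part may be smaller.

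The promoters of 4 members are given here, to set CXCL8 beside its most abundant CXC relatives, CXCL1 and CXCL2, and beside IL6. RefSeq promoters were matched for 8 of the 10 members, and the exceptions were CCL2 and LIF. Each sequence holds the 140 bases before the RefSeq start on GRCh38.p14, on the strand of the gene. Capitals mark matches, on either strand, to GGNNTTTCC (an NF-kB-like motif) or to TGANTCA (an AP-1-like motif).
CXCL8, chr4:73740429-73740568, plus strand: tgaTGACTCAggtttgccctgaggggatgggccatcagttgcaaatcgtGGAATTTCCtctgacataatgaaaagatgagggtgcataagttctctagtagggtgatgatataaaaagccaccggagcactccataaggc
CXCL1, chr4:73869253-73869392, plus strand: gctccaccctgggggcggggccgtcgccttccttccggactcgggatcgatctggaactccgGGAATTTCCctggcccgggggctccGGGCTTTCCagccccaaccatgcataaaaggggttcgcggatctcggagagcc
CXCL2, chr4:74099196-74099335, minus strand: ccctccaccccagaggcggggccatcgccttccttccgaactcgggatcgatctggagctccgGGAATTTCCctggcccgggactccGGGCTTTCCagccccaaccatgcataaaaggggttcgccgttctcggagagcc
IL6, chr7:22727060-22727199, plus strand: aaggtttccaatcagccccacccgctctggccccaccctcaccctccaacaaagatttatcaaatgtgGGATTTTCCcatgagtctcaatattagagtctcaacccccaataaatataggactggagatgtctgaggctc
The NF-kB-like motif was found in 6 of the 8 members (CXCL8, CXCL1, CXCL2, CXCL3, CXCL5 and IL6) and in 3.25% of 35116 RefSeq promoter windows of this length. The AP-1-like motif was found in 2 members, CXCL8 and IL1A, and in 3.92% of the windows. CXCL8 alone of the 8 held both, as did 0.162% of the windows. In a global alignment the CXCL1 and CXCL2 sequences were identical in 91.5% of columns, against 44.8% for CXCL8 and CXCL1. These matches describe letters in a window and not binding.

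Levels of different genes were compared per kb of exon. In NT cells of TPC1, CXCL1 was the most abundant member at 570 normalised reads per kb, followed by LIF (353), CCL2 (176), CXCL2 (112) and CXCL8 (82.3). IL6 followed at 16.6, IL1B at 10.7, CXCL3 at 7.21, IL1A at 4.96 and CXCL5 at 0.274. The ranges of the 3 libraries overlapped among CCL2, CXCL2 and CXCL8, and among IL6, IL1B, CXCL3 and IL1A. The lowest CXCL1 library, at 410 per kb, lay just under the highest LIF library at 413. CXCL5 did not exceed 6 normalised reads in any library and never passed the filter of at least 10 in at least 3 libraries. CXCL3, IL1A and IL1B stayed at low values, at most 37, 36 and 74.

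CXCL8 was downregulated in the siDicer groups of both lines. In TPC1 it was at 224, 306 and 109 in the NT libraries, at 407, 635 and 264 in the NC libraries, and at 79, 43 and 46 in the siDicer libraries. All 3 siDicer libraries lay below all 6 controls, and their mean was 17.3% of the control mean. The log2 difference was -2.37 (SE 0.44). Against NC alone the siDicer mean was 12.9%, and against NT alone it was 26.3%. In D11 the NT libraries had CXCL8 at 285, 137 and 114 and the NC libraries at 353, 141 and 139. The siDicer libraries had 68, 25 and 21. Again the groups did not overlap, the mean was 19.5% of control, and the log2 difference was -2.39 (SE 0.41).

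Calls needed an adjusted p below 0.05 together with a change of 1.5 times or more, up or down. By this rule 1 of 9 tested members was called in TPC1 (CXCL8), where 7.38% of all genes tested were called. In D11, 2 of 8 were called (CXCL8 and IL6), where 12% of all genes were. CXCL8 was the one member whose siDicer libraries all lay below all controls, in both lines, as did 9.91% of all genes in TPC1 and 14.1% in D11. Since CXCL8 was picked from this contrast, nothing is read from these counts. Without TPC1 siDicer replicate 3 the count of called members in TPC1 was 0. The log2 difference of CXCL8 stayed between -2.64 and -2.14 in TPC1 and between -2.90 and -2.07 in D11 as each library was left out.

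**Figure D1:**
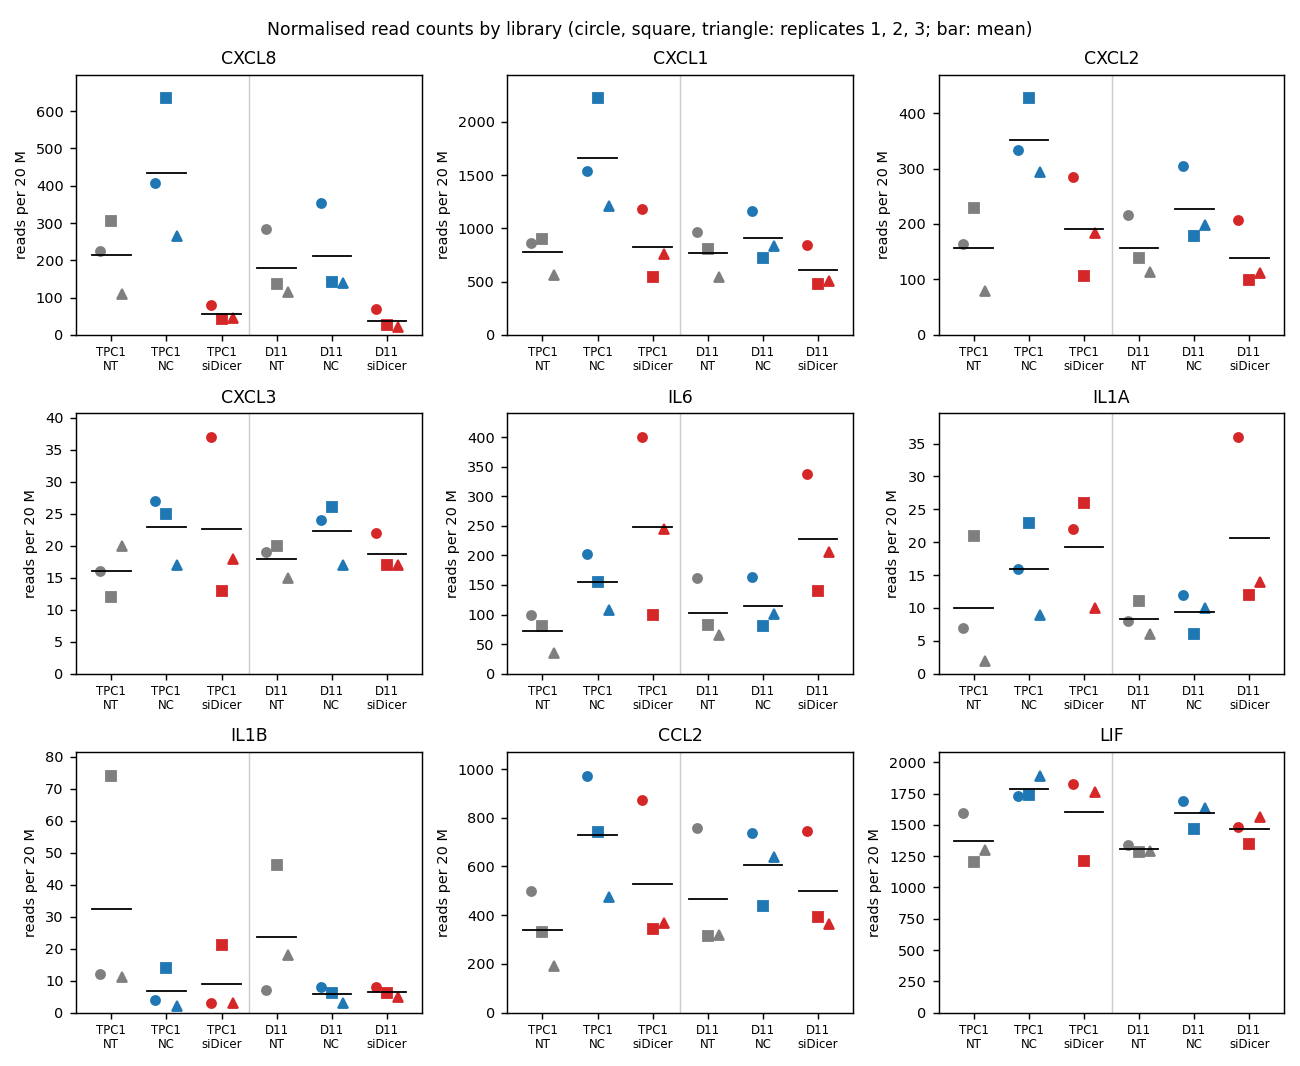
Normalised read counts (reads per 20 M, linear axes from 0) of 9 members in each of the 18 libraries, by line and treatment, with replicates 1, 2 and 3 as circle, square and triangle and the group mean as a bar. CXCL8 in siDicer lies at 43 to 79 in TPC1 and 21 to 68 in D11, below all controls, while the IL6 means are higher in siDicer than in NT and NC of the same line.

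The other CXC chemokines did not separate from the joined NT and NC controls in this way. CXCL1, an ELR chemokine like CXCL8, was at 559 to 903 in NT, 1213 to 2222 in NC and 542 to 1185 in siDicer of TPC1. Its siDicer mean was 68.0% of control there, with a log2 difference of -0.49 (SE 0.38), and siDicer overlapped the joined controls. The difference was -1.03 against NC alone and 0.050 against NT alone. The D11 libraries of CXCL1 were at 969, 804 and 540 in NT, at 1167, 720 and 831 in NC, and at 845, 476 and 506 in siDicer, a mean of 72.6% of control and a log2 difference of -0.47 (SE 0.23). CXCL2 was at 79 to 427 in the TPC1 controls and at 107 to 285 in siDicer, a log2 difference of -0.33 (SE 0.47), which was -0.96 against NC alone and 0.31 against NT alone. The sign for CXCL1 and CXCL2 in TPC1 thus turned with the control used. Against NC alone, all TPC1 siDicer libraries lay below all NC libraries for CXCL1 and for CXCL2 (NC at 293 to 427). Both genes overlapped NT in TPC1, and both overlapped NC in D11. As the members were chosen with this contrast known, nothing is read from this. In D11 CXCL2 ranged from 114 to 305 in the controls and from 99 to 207 in siDicer, a log2 difference of -0.47 (SE 0.29). Without D11 siDicer replicate 1 the differences were -0.73 for CXCL1 and -0.79 for CXCL2. CXCL3 showed differences of 0.12 (SE 0.35) in TPC1, turning to -0.28 without siDicer replicate 1, and -0.09 (SE 0.25) in D11. CXCL5 was at 6, 0 and 1 in TPC1 siDicer and at 3, 2 and 0 in D11 siDicer, against 0 in 11 of the 12 control libraries, and all but the value of 6 lay at or under the floor of 3 reads.

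Replicate numbers paired the D11 libraries, in that libraries of the same number deviated together. Within these D11 pairs, CXCL8 in siDicer was 0.193, 0.177 and 0.151 times its NC level. The same ratios were 0.724, 0.661 and 0.609 for CXCL1 and 0.679, 0.553 and 0.566 for CXCL2. All 3 pairs thus had lower siDicer values for these 3 chemokines, with CXCL8 lowest in every pair. The limma fits given here, those of D11 included, did not use the pairing unless a replicate block is named. With that block the share of all genes called in D11 was 13.3% in place of 12% for siDicer against control. For NC against NT in D11 it was 1.75% in place of 0.35%.

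IL6 had higher means in siDicer than in control. It was at 99, 81 and 35 in TPC1 NT, at 203, 155 and 108 in NC, and at 400, 100 and 245 in siDicer, where replicate 2 lay among the controls. The siDicer mean was 219% of control and the log2 difference was 1.10 (SE 0.52), which was not called. It was 0.51 against NC alone, 1.69 against NT alone and 1.65 without siDicer replicate 2. In D11, IL6 was at 161, 82 and 66 in NT, at 164, 80 and 101 in NC, and at 337, 140 and 206 in siDicer. This was 209% of control, with a log2 difference of 1.05 (SE 0.32), and it was called although the groups overlapped at 140 to 164. The IL6 call in D11 ended when siDicer replicate 1 or 3, NT replicate 2 or 3, or NC replicate 2 or 3 was left out, and the difference then lay between 0.72 and 1.35 over all 9 libraries left out in turn. Within the D11 pairs, siDicer was 2.05, 1.75 and 2.04 times NC for IL6.

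IL1A, a membrane-associated and nuclear cytokine, was low. Its siDicer values were 22, 26 and 10 in TPC1 and 36, 12 and 14 in D11, against controls of 2 to 23 and 6 to 12. The log2 differences were 0.74 (SE 0.61) and 1.02 (SE 0.39), and without D11 siDicer replicate 1 the latter was 0.55. IL1B was at 12, 74 and 11 in TPC1 NT, at 4, 14 and 2 in NC and at 3, 21 and 3 in siDicer, and replicate 2 was the highest in each of these groups. Its log2 difference between siDicer and control in TPC1 was -0.73 (SE 0.90), and the siDicer mean was 135% of NC and 27.8% of NT. IL1B did not pass the filter in the D11 comparisons, where NT was at 7, 46 and 18, NC at 8, 6 and 3, and siDicer at 8, 6 and 5.

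For CCL2 and LIF the siDicer means lay between those of NT and NC in both lines. CCL2 was at 191 to 972 in the TPC1 controls and at 872, 342 and 366 in siDicer, with a log2 difference of 0.02 (SE 0.46). This averages -0.55 against NC alone and 0.59 against NT alone. The same gene ranged from 316 to 760 in the D11 controls and was at 745, 393 and 364 in siDicer, a difference of -0.08 (SE 0.32), with the mean at 82.7% of NC and 108% of NT. Without D11 siDicer replicate 1 the difference was -0.41. LIF was the steadiest member: over the 12 control libraries its highest value was 1.57 times its lowest, against 5.83 times for CXCL8 and 5.80 times for IL6. Its siDicer means were 101% of control in both lines, and both log2 differences were 0.02 (SE 0.17 in TPC1, 0.11 in D11). Against NC alone LIF differed by -0.18 in TPC1 and -0.13 in D11, and against NT alone by 0.21 and 0.16.

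Ratios of 2 members within a library do not depend on its depth. The ratio of IL6 to CXCL8 normalised reads was 0.244 to 0.727 over the 12 control libraries and 2.33 to 9.81 over the 6 siDicer libraries. CXCL8 relative to CXCL1 was 0.167 to 0.339 in the controls and 0.0415 to 0.0805 in siDicer. Neither ratio overlapped between siDicer and control, in either line. By contrast CXCL2 relative to CXCL1 was 0.141 to 0.261 in the controls and 0.197 to 0.245 in siDicer, within the control range. IL6 relative to CCL2 was 0.158 to 0.259 in the controls and 0.292 to 0.669 in siDicer. As CXCL8 and IL6 were chosen with these differences known, the ratios are descriptions.

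**Figure D2:**
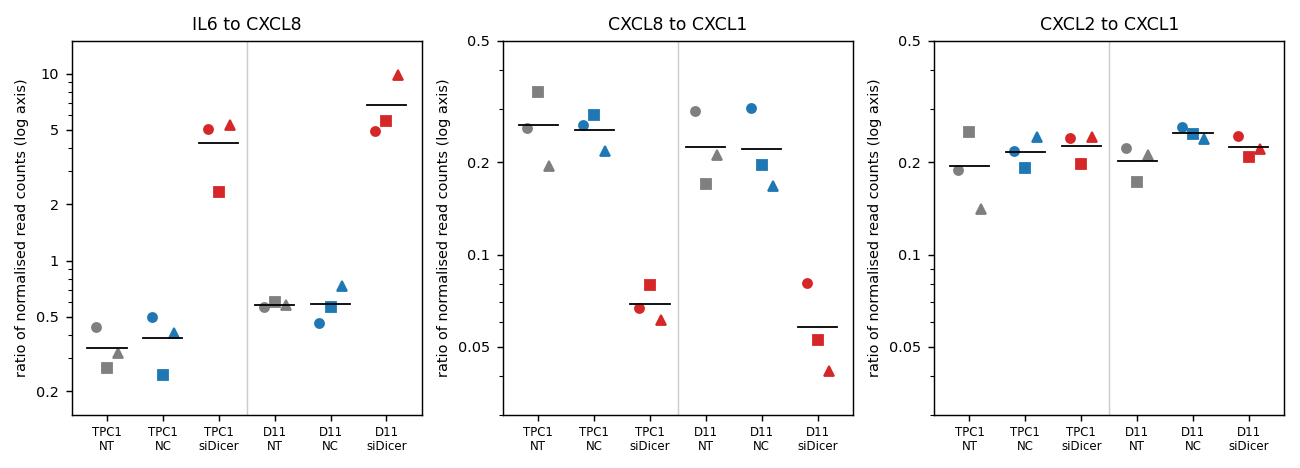
Ratios of normalised read counts within each library (log axes), by line and treatment, with replicates as in the plot of counts and the mean as a bar. IL6 to CXCL8 is 2.33 or more in all siDicer libraries and 0.727 or less in all controls, whereas CXCL2 to CXCL1 stays within 0.141 to 0.261 throughout.

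Whether the siDicer difference itself differed between D11 and TPC1 was tested as an interaction over 18 libraries. For CXCL8 the D11 difference minus the TPC1 difference was -0.02 on the log2 scale (95% interval -1.30 to 1.26, adjusted p = 1.00 by limma). IL6 gave -0.05 (95% interval -1.30 to 1.21, adjusted p = 1.00). The intervals include more than a doubling either way, so like responses are not shown. None of the 9 tested members was called in this limma fit, 0 had an unadjusted p under 0.05, and voom on recovered reads also called 0. Over all genes 0% were called and 0.892% had an unadjusted p under 0.05.

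The negative control siRNA alone was accompanied by higher values of most members in TPC1, a comparison that the choice of genes did not use. CXCL1 was at 865, 903 and 559 in NT and at 1534, 2222 and 1213 in NC, which is 214% of NT with no overlap. The log2 difference was 1.08 (SE 0.25, adjusted p = 0.17). CXCL2 was at 163, 228 and 79 in NT and at 334, 427 and 293 in NC, a difference of 1.27 (SE 0.35, adjusted p = 0.24). Neither passed the test in this fit, which had no replicate block. CXCL8 differed by 1.06 (SE 0.41, adjusted p = 0.40), with the NC libraries at 264 to 635 overlapping NT at 109 to 306.

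IL6 differed by 1.18 between NC and NT of TPC1 (SE 0.39, adjusted p = 0.33), CCL2 by 1.14 (SE 0.36, adjusted p = 0.31) and LIF by 0.40 (SE 0.12, adjusted p = 0.28). IL1B went the other way by -1.90 (SE 0.83, adjusted p = 0.45). None of the 9 tested members was called in TPC1, where limma called 0.111% of all genes, and voom on recovered reads also called 0. The replicate block, an alternative here since TPC1 numbers were not taken as pairs, called most of them. By limma with that block 8 of 9 had an unadjusted p under 0.05, 7 of them higher, against 21.3% of all genes. At an unadjusted p under 0.05, 7 of 9 members passed by limma, 6 of them higher in NC, against 11.1% of all genes passing in either direction and 5.84% higher. By voom 6 passed, all higher. Without TPC1 NC replicate 1, 3 of 8 tested members passed by limma, against 6.42% of all genes. CXCL1, CXCL2, IL6 and LIF had all 3 NC libraries above all 3 NT libraries, as had 8.2% of all genes.

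In D11 no member passed the test for NC against NT. CXCL8 differed by 0.21 (SE 0.41, adjusted p = 0.85) and turned to -0.23 without NC replicate 1 and to -0.05 without NT replicate 3. CXCL2 differed by 0.55 (SE 0.27, adjusted p = 0.40) and LIF by 0.29 (SE 0.10, adjusted p = 0.28). LIF was at 1343, 1286 and 1289 in NT and at 1693, 1469 and 1635 in NC. None of 8 tested members was called, where 0.35% of all genes were, and voom also called 0. By limma LIF alone had an unadjusted p under 0.05, against 13.6% of all genes, and by voom 1 member had. That count was 0 of the members tested without NC replicate 1, NC replicate 3 or NT replicate 3, 2 without NC replicate 2 and 3 without NT replicate 1, and 3 with the replicate block, where 19.1% of all genes passed. LIF alone had no overlap, as 10.8% of all genes did upwards. Whether NC against NT differed between the lines was not tested.

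No member was called between D11 and TPC1. Over the 12 NT and NC libraries, with transfection as a term, CXCL8 was lower in D11 by a log2 difference of -0.67 (SE 0.33, adjusted p = 0.53) and CXCL1 by -0.44 (SE 0.21, adjusted p = 0.52). By limma 0 of 9 members were called, where 1.02% of all genes were, and voom called 0. At an unadjusted p under 0.05, 0 members passed by limma, against 9.85% of all genes, and 2 by voom. The 95% interval of CXCL8, -1.39 to 0.04, includes a halving.

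**Figure D3:**
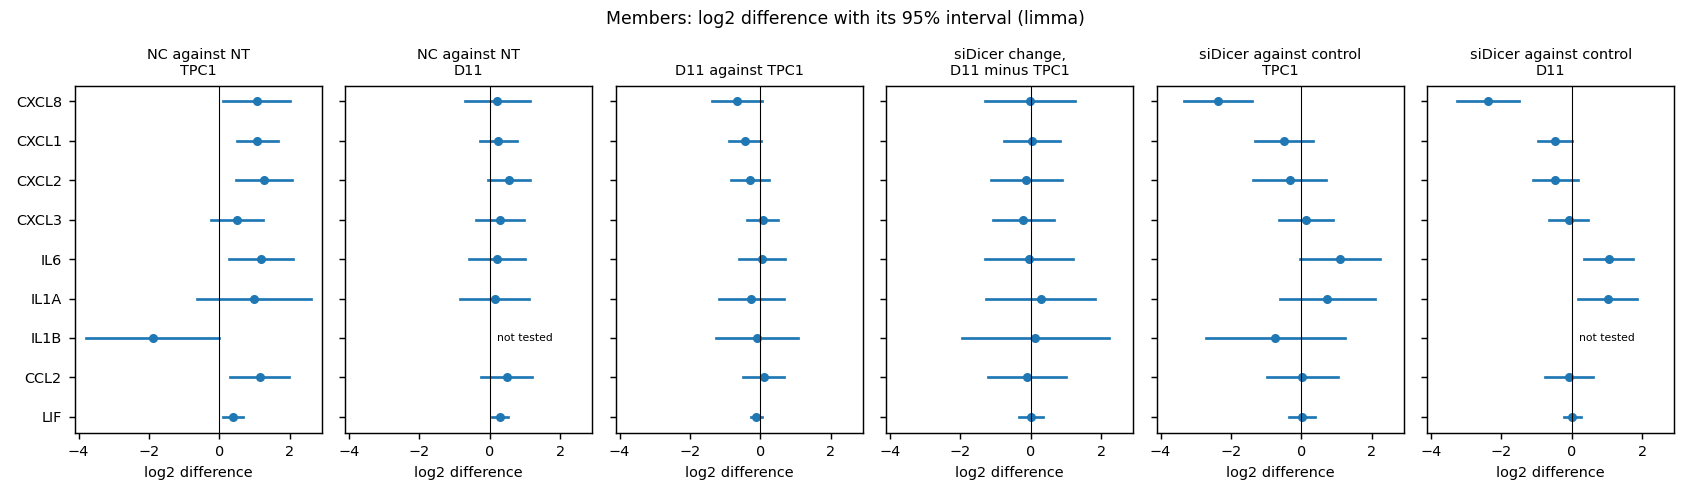
Log2 differences (dots) with 95% intervals (lines) from limma for 9 members in 6 comparisons; IL1B was not tested within D11. The siDicer intervals of the members are descriptions and no test, since CXCL8 was chosen for its fall there. For NC against NT in TPC1, the intervals of CXCL8, CXCL1, CXCL2, IL6, CCL2 and LIF lie above 0. That of IL1B lies just below 0. These intervals are not adjusted for the number of genes, and none of these members was called in this fit without a replicate block. All intervals of the D11 minus TPC1 change include 0.

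Genes whose pattern was most like that of CXCL8 were ranked by Pearson's r of log2 values among 12507 genes with a mean of at least 100. Over all 18 libraries, which include the siDicer groups, the leading genes were AKR1B1 (an aldose reductase, r = 0.94), FUCA2 (a lysosomal fucosidase, 0.94), AL031320.2 (0.94), UBE2J1 (an enzyme of endoplasmic reticulum protein degradation, 0.91) and GFPT1 (the first enzyme of the hexosamine pathway, 0.91). AL031320.2 overlaps FUCA2 on the opposite strand, so the values of both are uncertain. CXCL1 ranked at place 208 of these genes and IL6 at place 8201, with r = -0.18. Over the 12 NT and NC libraries the order was different: CXCL1 ranked first (r = 0.93), before PNKD, SPP1 (osteopontin), C3 (complement component C3) and NFKB2 (the p100 precursor of NF-kB), all at 0.91. CXCL2 followed at place 7 (0.90), IL6 at place 27 (0.80) and CCL2 at place 80 (0.72). PNKD, SPP1 and GFPT1 also overlap genes on the opposite strand, and C3 overlaps genes on its own strand. Their values are uncertain to that extent. The libraries share lines, treatments and replicate numbers, so these correlations are descriptions.

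The wider pathway was followed through 96 genes in 6 hand-written lists, none of which holds a member. The lists were written with earlier results of these data known, so their counts and p-values are not independent support. In TPC1, 7 of 77 tested genes were called for siDicer against control, 2 higher and 5 lower. Of all genes tested there, 3.22% were called higher and 4.16% lower. In D11, 17 of 74 were called, 11 higher and 6 lower, and of all genes 5.26% were called higher and 6.75% lower. The TPC1 count was 4 without siDicer replicate 1, 14 without siDicer replicate 2 and 4 without siDicer replicate 3, and the D11 count was 10 without siDicer replicate 1. The p-values of these genes are from limma with Benjamini-Hochberg adjustment over all genes tested. TLR4, IL6R, CHUK, CYLD, ELAVL1, IL24, IL32 and ICAM1 overlap a gene on the opposite strand, and their values are uncertain to that extent.

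Of 18 receptors, 10 were tested in TPC1 and 9 in D11. CXCR1 was at 0 in all libraries and CXCR2 at 2 or less, so the receptors of CXCL8 itself were not detectable at this depth. TLR4, the receptor for lipopolysaccharide, rose in both lines, by 0.65 in TPC1 (SE 0.13, adjusted p = 0.0091) and by 0.82 in D11 (SE 0.20, adjusted p = 0.012). Both TLR4 calls ended without siDicer replicate 1 of the line, at 0.60 and 0.70, and the TPC1 call also ended with NC alone as control (0.54). IL6R, the ligand-binding chain of the IL6 receptor, rose by 1.08 in D11 (SE 0.31, adjusted p = 0.027) and differed by 0.94 in TPC1 (SE 0.36, adjusted p = 0.10). It was also higher in NC than in NT. In D11 it was at 178 to 201 in NT, 359 to 468 in NC and 426 to 759 in siDicer, and the NC difference of 1.10 passed the test (SE 0.15, adjusted p = 0.030). With NC alone as control, the D11 siDicer difference was 0.53 and was not called. The siDicer call of IL6R also ended without siDicer replicate 1 (0.90), siDicer replicate 3 (1.01) or NT replicate 3 (0.98). The NC call ended without NC replicate 1 (1.01), NC replicate 2 (1.20), NC replicate 3 (1.09) or NT replicate 3 (1.12), and, at an unchanged difference, with no filter on low values or with all 18 libraries in the fit. The median over the receptors tested was 0.16 in TPC1 and 0.35 in D11, against -0.04 over all genes tested in each line.

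Among 18 NF-kB genes, all tested, 2 fell in TPC1 and 3 rose and 2 fell in D11. CHUK, which encodes the kinase IKK-alpha, was at 1224 to 1465 in the TPC1 controls and at 431 to 612 in siDicer, a log2 difference of -1.44 (SE 0.12, adjusted p = 3.4e-04). In D11 it was at 1227 to 1469 and at 434 to 563 (-1.40, SE 0.11, adjusted p = 3.4e-05). CHUK did not overlap in either line, and its call held as each library was left out. BCL3, a nuclear IkB protein that binds p50 and p52, fell in TPC1 (-0.59, SE 0.15, adjusted p = 0.025) and in D11 (-0.74, SE 0.13, adjusted p = 0.0019). The TPC1 call of BCL3 lay at the fold minimum and ended without NT replicate 1 (-0.58), NC replicate 2 (-0.51), siDicer replicate 2 (-0.46) or siDicer replicate 3 (-0.59). It also ended with TMM scaling (-0.56), RLE scaling (-0.55), a pseudocount of 10 (-0.58), and NC alone (-0.68) or NT alone (-0.50) as control. NFKB2, TRAF1 (a TNF receptor adaptor) and CYLD (a deubiquitinase that restrains NF-kB) rose in D11 and were not called in TPC1. These last genes are named here after their values were seen. The list median was 0.10 in TPC1 and 0.18 in D11.

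The AP-1 and C/EBP list held 12 genes, of which 0 were called in TPC1 and 1 in D11. JUND rose by 0.68 in D11 (SE 0.20, adjusted p = 0.030) and differed by 0.50 in TPC1 (adjusted p = 0.17). The JUND call ended without NC replicate 1 (0.55), NC replicate 3 (0.67), siDicer replicate 2 (0.64) or siDicer replicate 3 (0.55), and with NT alone as control (0.51). FOSL2 differed by 0.49 in D11 (SE 0.14, adjusted p = 0.023), under the fold minimum, and by 0.38 in TPC1 (adjusted p = 0.17). The list median was 0.28 in TPC1 and 0.07 in D11.

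Of 12 factors of cytokine messenger RNA decay and stability, 1 fell in TPC1, and 1 rose and 1 fell in D11. ELAVL1, which encodes HuR, a protein that binds and stabilises AU-rich messenger RNAs, fell from 1971 to 2576 in the TPC1 controls to 1310 to 1832 in siDicer (-0.65, SE 0.13, adjusted p = 0.0089). In D11 the values were 2099 to 2769 and 1309 to 1679 (-0.76, SE 0.11, adjusted p = 7.9e-04). The TPC1 call of ELAVL1 ended without siDicer replicate 1 (-0.57) or siDicer replicate 3 (-0.56). MAPKAPK2, the kinase MK2 that acts on such RNAs through tristetraprolin, differed by 0.47 in TPC1 (SE 0.08, adjusted p = 0.0047) and 0.42 in D11 (SE 0.08, adjusted p = 0.0027), both under the fold minimum. ZC3H12A, the RNase Regnase-1, rose in D11 and is named after its value was seen. The list median was 0.17 in TPC1 and 0.20 in D11.

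In the STAT3 list of 12 genes 0 were called in TPC1, and 1 rose and 1 fell in D11. PIM1, a kinase induced by STAT signalling, was at 51 to 86 in the D11 controls and at 24 to 36 in siDicer (-1.21, SE 0.22, adjusted p = 0.0025) and differed by -0.72 in TPC1 (adjusted p = 0.075). CISH, a feedback inhibitor of cytokine receptors, was at 9 to 19 and at 28 to 33 in D11 (1.09, SE 0.27, adjusted p = 0.013) and differed by 0.69 in TPC1 (adjusted p = 0.053). The CISH call ended without siDicer replicate 1 (1.08) or siDicer replicate 2 (1.04), and with NC alone as control (0.82). CISH overlaps MAPKAPK3 on the opposite strand, so its low value is uncertain. The list median was 0.07 in TPC1 and 0.00 in D11.

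Among 24 other secreted inflammatory factors, 13 were tested in TPC1 and 11 in D11. CSF1, the macrophage colony-stimulating factor, rose in both lines with no overlap: it was at 756 to 1003 in the TPC1 controls and 1295 to 1747 in siDicer (0.79, SE 0.12, adjusted p = 0.0030), and at 744 to 1064 and 1389 to 1500 in D11 (0.70, SE 0.12, adjusted p = 0.0017). With NT alone as control the D11 difference was 0.56, below the fold minimum. CCL26, an eosinophil chemokine, was at 8 to 32 in the TPC1 controls and 1 to 4 in siDicer (-2.69, SE 0.46). In D11 it was at 7 to 42 and 0 to 5 (-3.34, SE 0.65). It passed the filter only through its control libraries, so nothing is read from its calls. In each line 2 of 3 siDicer values lay at or under the floor. The mean was already lower in NC than in NT, at 14 against 28 in TPC1 and 12.3 against 29 in D11. With NC alone as control CCL26 did not pass the filter. PTGES, a prostaglandin E synthase, fell in TPC1 (-0.91, SE 0.23, adjusted p = 0.027) and in D11 (-1.35, SE 0.20, adjusted p = 9.4e-04). The TPC1 call of PTGES ended without siDicer replicate 1 (-0.68), siDicer replicate 3 (-0.83), NC replicate 2 (-0.85) or NT replicate 3 (-0.89), and with NC alone or NT alone as control. IL11 and IL32 rose in D11, named after their values were seen. The list median was -0.21 in TPC1 and -0.19 in D11.

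**Figure D4:**
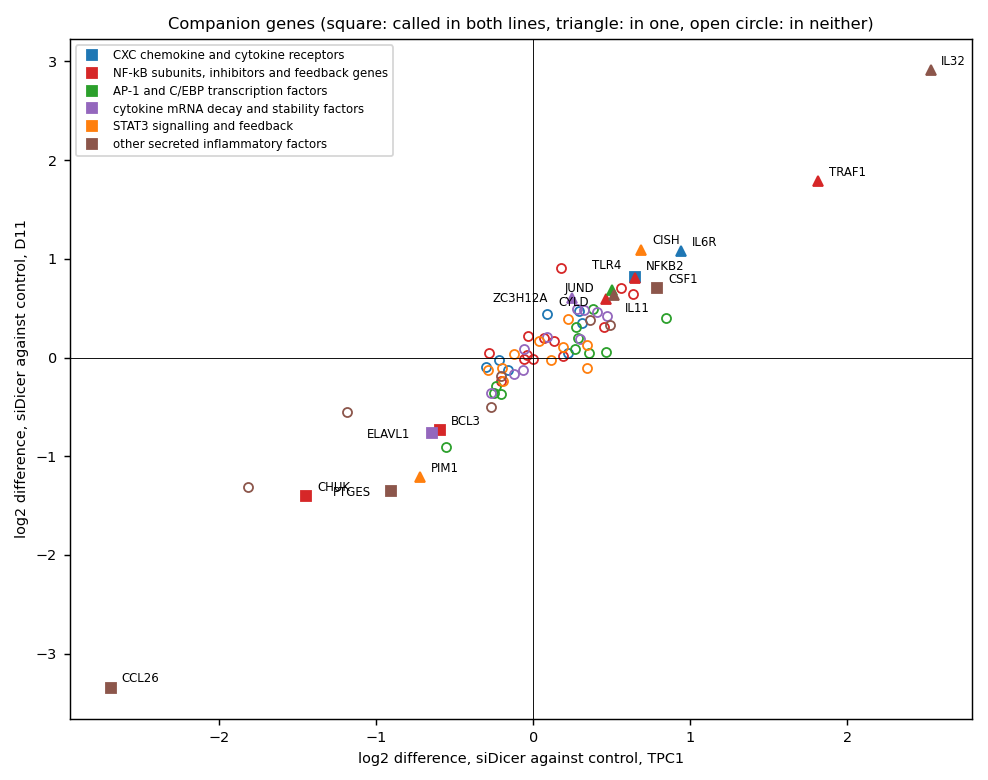
Log2 difference of siDicer against control in TPC1 (x axis) and D11 (y axis) for the companion genes tested in both lines, coloured by list; squares were called in both lines, triangles in one and open circles in neither. CHUK, CCL26, PTGES, BCL3 and ELAVL1 lie low in both lines and CSF1 and TLR4 high; the lines share no library.

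Beyond siDicer, IL24, a cytokine of the IL10 family, fell between NT and NC in D11, from 52 to 94 down to 7 to 14 (-2.67, SE 0.34, adjusted p = 0.026). In TPC1 it was at 28 to 111 in NT and at 6 to 19 in NC (-2.50, adjusted p = 0.15). The D11 call of IL24 ended without NC replicate 1 (-2.87), NC replicate 2 (-2.71), NC replicate 3 (-2.42) or NT replicate 3 (-2.88), and, at an unchanged difference, with no filter on low values. IL6R differed by 0.84 between NC and NT of TPC1 (adjusted p = 0.15). ICAM1, a leukocyte adhesion molecule and NF-kB target, was at 11 to 63 in the 6 TPC1 controls and at 0 to 6 in the 6 D11 controls (-2.92, SE 0.54), and is named after its values were seen. It passed the filter only through its TPC1 libraries, so nothing is read from its call. Most D11 values of ICAM1 lay near the floor, and the call ended with a pseudocount of 0.1 (-4.13). A set of 19 companion genes stayed at 16 or less and was never tested, among them TNF (7 or less), CXCL10 (2 or less), CXCL6 and CXCL12 (0 in all libraries).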

How the data were processed

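Poly-A RNA of 18 libraries was sequenced. According to the methods of the study and the processing notes of the submitters, the authors aligned reads to GRCh38 with STAR 2.5.3a and obtained gene-level totals with HTSeq 0.9.1 on the Ensembl 90 annotation. The values they deposited are a normalised score: reads scaled to 20 M per library and rounded up, so not counts. Spacing of the values gave the depth of each library; in 16 libraries 99.2% to 99.9% of the values could be turned back into whole reads, and in the other 2, where 1 read is worth less than 1, the reads are approximate. Recovered reads entered only the voom alternative and the floor. Floors cover counting error only, while the intervals from limma hold the spread between these libraries.

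Groups were taken from the sample descriptions; for 12 of 18 samples the title names another group, and the DICER1 level of each library accords with its description. Values were taken as log2(value + 1), which understates changes of low genes, and genes with at least 10 in at least 3 libraries of a fit were tested with limma 3.58.1 (trend) in R 4.3.3, with Benjamini-Hochberg adjustment over all genes tested. Calls needed an adjusted p below 0.05 together with a change of 1.5 times or more. Scripts were tested on simulated data. Comparisons were siDicer against control and NC against NT, both within a line, D11 against TPC1 over 12 control libraries, and the interaction of line and siDicer.

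The 10 members and the 6 companion lists were chosen with earlier results of these data known. Named companion genes were those called in both siDicer comparisons (at most 4 a list), the 2 per list with the smallest adjusted p in D11, and those called in NC against NT, with the 5 genes most like CXCL8 over 18 and over 12 libraries; others are said to be named after their values were seen. Promoters are from RefSeq on GRCh38.p14, positions from GENCODE release 44.

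Whether replicate numbers pair the libraries was examined through correlated deviations around the group means. In D11, 9 of 9 same-number pairs exceeded 0.1 (0.108 to 0.504), and the numbers were taken to pair the libraries. Alternatives were TMM and RLE scaling, other filters and pseudocounts, no fold minimum, NT or NC alone as control, a replicate block, all 18 libraries in one fit, voom, groups from the titles, and each library left out in turn; the block with NT or NC alone, and the block over both lines, were added after seeing the data.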

Additional observations from a re-analysis of the deposited data

Results flagged for a closer look

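Among 19 groups of 6 control libraries tested for a sample far from the others, 3 were flagged. The rule flags about 1 in 20 groups by chance when values follow 1 normal distribution. These groups join NT and NC on a linear scale, so that rate need not hold here. IL1B in TPC1 NT replicate 2 was at 74, where the next of the 6 TPC1 controls was at 14. IL1B in D11 NT replicate 2 was at 46, with the next D11 control at 18. CXCL5 was at 2 in TPC1 NT replicate 3 and at 0 in the other 5 TPC1 controls, a value under the floor of 3 reads in that library. Any single value above 0 would have been flagged there. The IL1B values move the TPC1 difference between NC and NT, which is -1.90 with all libraries and lies between -2.55 and -1.04 as each library is left out.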

How the results depend on the processing

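The number of called members was 0 under every alternative run for D11 against TPC1, for the interaction and for NC against NT in D11. For NC against NT in TPC1 it was 0 except with the replicate block, which called 6 of 9 members, 5 higher and 1 lower, and 3.14% of all genes. TPC1 numbers were not taken as pairs, since 8 of 9 same-number correlations exceeded 0.1 and the last was 0.0994, although 9 of 9 TPC1 libraries, and 8 of 9 in D11, correlated best with a library of their own number. In D11 the replicate block changed no member call in the comparisons as made.

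With NC alone as control and the block, 3 members were called for siDicer in TPC1, all lower, and 4 in D11; with NT alone and the block, 3 were called in TPC1. NC alone without the block gave 1 member and 11 companion genes in D11 and 4 companion genes in TPC1. With all 18 libraries in the fit, 1 member was called in D11 and 11 companion genes in TPC1. With NT alone and the block, 11 companion genes were called in TPC1, and with a mean of at least 100, 11 in D11. The cause was not tested, except that the last setting tests fewer genes. As each library was left out, called members ranged from 0 to 1 in TPC1 and 1 to 2 in D11, and called companion genes from 4 to 14 and from 10 to 18.

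Grouping by the titles, which DICER1 does not follow, gave 0 called members and 0 called companion genes for siDicer in both lines. For NC against NT it reversed, in TPC1, CXCL1 (-0.18), CXCL2 (-0.19), IL6 (-0.89), IL1B (2.19), CCL2 (-0.77), LIF (-0.33), IL6R (-0.84) and IL24 (0.79), and in D11 CXCL8 (-1.26), CXCL2 (-0.82), LIF (-0.13) and IL6R (-0.46). For siDicer it reversed, in TPC1, TLR4 (-0.14), ELAVL1 (1.1e-06), CCL26 (0.43), CSF1 (-0.042), MAPKAPK2 (-0.017), JUND (-0.14), PIM1 (0.065) and CISH (-0.022), and in D11 IL6 (-0.35), TLR4 (-0.18), BCL3 (0.13), PIM1 (0.10), CISH (-0.13), CCL26 (1.31) and PTGES (0.10).

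The interaction, close to 0, changed sign for CXCL8 with a pseudocount of 10 (0.10), with titles (0.041) and with NC alone, block or not (0.41), and for IL6 with titles (0.23) and with NC alone, block or not (0.44). As each library was left out it ranged from -0.53 to 0.30 for CXCL8 and from -0.59 to 0.40 for IL6. It turned positive for CXCL8 without TPC1 siDicer 1 (0.25), NT 3 (0.19) or NC 3 (0.14) and without D11 NT 1 (0.18), NC 1 (0.20), siDicer 2 (0.18) or siDicer 3 (0.30). It turned positive for IL6 without TPC1 siDicer 1 (0.40), NT 3 (0.17), NC 3 (0.070) or siDicer 3 (0.048) and without D11 NT 1 (0.14), NC 1 (0.095) or siDicer 2 (0.25). CXCL8 for NC against NT in D11 ranged from -0.23 to 0.61 and was -0.052 without NT 3. Depth limits CXCL5, IL1A, IL1B and CXCL3, which lay near the floor.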
